A study of Mus musculus with 5 samples.

Results

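The Notch pathway was examined through 10 genes: the receptor genes Notch1, Notch2 and Notch3, the ligand genes Dll1, Dll3 and Jag1, and the Hes and Hey genes Hes1, Hes5, Hes6 and Hey1. They were picked by gene name out of 46078 genes listed for every library, and all 10 passed the filter on low values, a mean of at least 1 TPM. TPM is a gene's share of the transcripts of a library, corrected for gene length and scaled to the same total in each library. The cells were undifferentiated neural stem and precursor cells from the subventricular zone of C57BL/6 mice without a mutation, labelled as adult females of 5-8 weeks, while the study's methods give an age of 3 to 5 months. Per the study's methods, they were passaged as neural spheres and plated on coated wells, and both groups received the buffer PBS as a sham exposure. RNA was taken 1 h later in 2 libraries (replicates 1 and 2) and 8 h later in 3 libraries (replicates 13, 14 and 15). Time after PBS was the only factor that differed between the groups by label, and libraries of cells exposed to hydrogen peroxide were not analysed here.

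Notch receptors sit in the cell membrane and are activated by Delta and Jagged ligands on neighbouring cells. Binding leads to cleavage of the receptor by the gamma-secretase complex, and the freed intracellular part moves to the nucleus, where it joins the DNA-binding protein RBPJ and a Mastermind co-activator to switch on genes of the Hes and Hey families. The products of Hes1, Hes5 and Hey1 are repressors that hold down proneural genes, whose products in turn activate Delta genes, so that neighbouring cells can take on different states. In the subventricular zone, the pathway is known for keeping neural stem cells in an undifferentiated state.

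All 10 genes are protein-coding, and the deposited GRCm38 coordinates were equal to those of GENCODE mouse release 21 for 9 of them (all but Notch3). Hes5 is a short gene on the forward strand at chr4:154960923-154962371, whereas Dll1, at chr17:15367354-15376872, and Jag1, at chr2:137081456-137116644, lie on the reverse strand. RefSeq promoter windows (build GRCm38.p6, 250 bases before to 50 bases after a start site, on the strand of the gene) matched 8 of the 10 genes in 10 windows. Hes1 and Hey1 had no entry. The letters GTGGGAA, the core sequence that RBPJ binds, were searched on both strands (TTCCCAC on the other). They were found in 2097 of all 32851 windows (6.38%) and, among the 10 windows of the Notch genes, in that of Hes5 alone. The Hes5 window is shown because Hes5 had the largest log2 fold change of 8 h against 1 h by TPM among the 10 genes, though it was not called, and the capitals mark the 2 matches, at positions 25 (reverse strand) and 168 (forward strand) of the window chr4:154960673-154960972:
Hes5: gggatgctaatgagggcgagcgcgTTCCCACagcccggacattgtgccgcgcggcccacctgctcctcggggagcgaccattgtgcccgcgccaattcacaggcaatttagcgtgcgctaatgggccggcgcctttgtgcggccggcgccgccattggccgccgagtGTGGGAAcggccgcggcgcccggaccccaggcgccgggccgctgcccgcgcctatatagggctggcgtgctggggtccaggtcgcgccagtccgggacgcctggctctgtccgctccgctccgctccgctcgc
The windows of Dll1 and Jag1 are shown because the TPM of these ligand genes did not overlap between the times, in opposite directions, though neither was called. In them the capitals mark CANNTG, the E-box read on both strands, to which proneural and Hes-type factors of the basic helix-loop-helix family can bind, and which 72.3% of all windows held. The Dll1 windows, chr17:15375774-15376073 and chr17:15376883-15377182, held 1 and 3 such matches, and the Jag1 window, chr2:137116471-137116770, held 1:
Dll1, start site within the gene: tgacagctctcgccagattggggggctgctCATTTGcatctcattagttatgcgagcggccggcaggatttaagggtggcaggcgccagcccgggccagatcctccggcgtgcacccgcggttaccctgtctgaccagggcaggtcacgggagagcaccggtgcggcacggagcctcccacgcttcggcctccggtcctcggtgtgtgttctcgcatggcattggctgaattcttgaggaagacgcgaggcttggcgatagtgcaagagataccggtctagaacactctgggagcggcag
Dll1, upstream start site: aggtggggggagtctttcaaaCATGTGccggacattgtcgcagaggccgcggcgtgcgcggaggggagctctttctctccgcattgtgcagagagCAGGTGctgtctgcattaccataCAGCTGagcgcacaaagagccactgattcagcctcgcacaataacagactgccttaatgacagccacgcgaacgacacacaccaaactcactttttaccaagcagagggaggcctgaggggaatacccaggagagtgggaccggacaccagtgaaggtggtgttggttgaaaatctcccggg
Jag1: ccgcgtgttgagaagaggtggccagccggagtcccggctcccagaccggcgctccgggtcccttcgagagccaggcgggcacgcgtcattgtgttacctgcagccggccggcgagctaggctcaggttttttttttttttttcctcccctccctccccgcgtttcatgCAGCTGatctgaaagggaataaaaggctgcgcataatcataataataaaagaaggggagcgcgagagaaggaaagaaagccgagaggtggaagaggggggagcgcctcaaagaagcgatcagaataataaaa
The letters CACGTG were found in none of the 10 windows, against 7.15% of all windows. The letters CACNAG, known as an N-box and searched on both strands, were found in the windows of Notch1, Notch2 and Notch3, in the second Dll1 window and in 1 Hes6 window, against 42.5% of all windows. Such matches are a description of these windows only.

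The libraries differed in more than time. Library identifiers in the labels ran in 2 number series, and the sources used here do not say what these stand for. Identifier series 1 held both 1 h libraries and 8 h replicate 14, and series 2 held 8 h replicates 13 and 15. Xist, which is expressed from the inactive X chromosome of female cells, was between 0.0285 and 0.0611 TPM in the 3 libraries of series 1 and at 165 and 199.7 TPM in those of series 2. Summed TPM of 4 Y-linked genes was between 138 and 181 in series 1 and at most 0.0253 in series 2, although all libraries were labelled female. Mitochondrial genes held 10.7 to 11.1% of the TPM in series 1 and 6.23 and 6.30% in series 2. All 7 precursor markers (such as Sox2 and Nes), all 7 oligodendrocyte lineage and all 6 astrocyte markers had a mean of at least 1 TPM, as did 5 of 6 neuroblast and neuron markers. None of 6 microglial markers did (Aif1 and Tmem119 were at 0 in every library), and 2 of 5 endothelial, 1 of 5 mural and 1 of 4 ependymal markers did (Cdh5, Cldn5 and Tmem212 were at 0). Summed astrocyte marker TPM was 871 to 991 in series 1 and 1415 and 1470 in series 2, and the summed precursor list 10909.5 to 11454 in series 1 and 12817 and 13849 in series 2. Most of the precursor sum was Fabp7, which was higher in series 2, as were Vim, Egfr, Msi1 and Mki67. Nes went the other way, at 736 to 784 TPM in series 1 and 690 and 699 TPM in series 2, and Sox2 overlapped. The summed mural list, almost all of it Acta2, was 76.0 to 114 in series 1 and 11.8 and 16.6 in series 2. The summed ependymal list, most of it Foxj1, overlapped between the series. It was 23.7 and 27.5 TPM at 1 h and 18.8, 16.6 and 16.3 TPM at 8 h, without overlap between the times. Dll1, Hes5 and Hey1 were also lower in every 8 h library, and Hey1 was lower in series 2 as well. Below 1.5 TPM, the microglial sum was likewise lower in every 8 h library. The neuroblast and neuron sum was 271 and 276 TPM at 1 h and 213, 460 and 241 TPM at 8 h. Most of it was Map2, at 405 TPM in 8 h replicate 14 and 173 to 217 TPM in the other libraries. No other marker of that list was highest in replicate 14, and Dcx was lowest there, at 4.59 TPM. The part of these differences in the results below was not tested, and in the comparison of 8 h with 1 h the time cannot be told apart from the series for the 2 libraries of series 2.

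Among the Notch genes, Hey1 was the most abundant at 100.6 ± 9.90 TPM (mean ± SD, n = 5 libraries), followed by Notch1 (80.3 ± 4.46), Dll1 (60.8 ± 18.6), Hes6 (56.7 ± 7.61), Hes1 (48.1 ± 11.4) and Notch3 (35.5 ± 7.36). A lower tier was formed by Jag1 (18.8 ± 3.71), Dll3 (18.2 ± 2.28), Notch2 (17.0 ± 6.11) and Hes5 (12.2 ± 7.33). Only Hey1 and Notch1, and Notch3 and Jag1, were neighbours in this order whose ranges over the 5 libraries did not overlap. All other neighbours overlapped in range, which does not compare them within a library. Of these overlapping pairs, only Hes1 and Notch3 kept their order in each of the 5 libraries. The mean of Hey1 lay at the 87.5th percentile of the 13870 genes with a mean of at least 1 TPM and that of Hes5 at the 35.9th. Notch1 was the steadiest of the 10 genes, with a highest library 1.17 times its lowest, and Hes5 the most variable, at 3.58 times. In bulk RNA, a lower share of cells expressing a gene and less RNA of it per cell cannot be told apart. Genes that overlap the 10 on either strand were low, with a mean of at most 0.832 TPM.

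**Figure D1:**
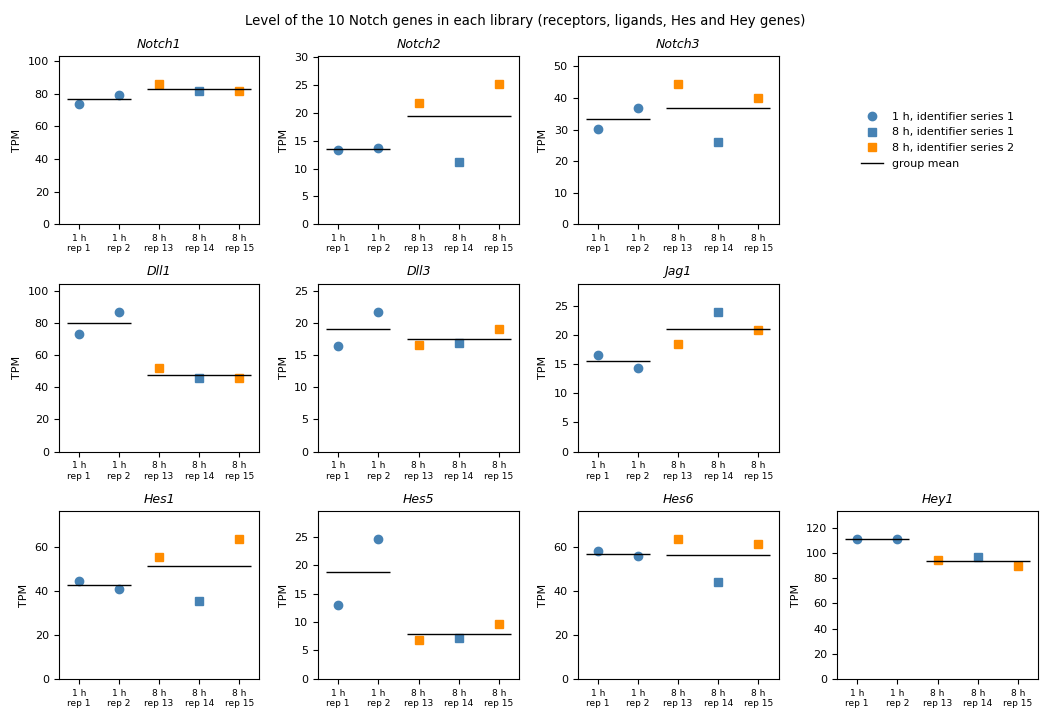
TPM (y axis, from 0) of each of the 10 genes in the 2 libraries of 1 h (circles) and the 3 of 8 h (squares), coloured by identifier series, with a black line at each group mean. Dll1, Hes5 and Hey1 were lower in every 8 h library than in both 1 h libraries, whereas in the panels of Notch2, Notch3, Hes1 and Hes6 the 8 h replicate 14 sits below the 1 h libraries and the other 8 h libraries above them.

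The receptor genes were led by Notch1, the best studied receptor of neural stem cells. Its TPM was 73.4 and 79.3 in the 1 h libraries, and 85.7, 81.6 and 81.4 in the 8 h replicates 13, 14 and 15. Every 8 h library was above both 1 h libraries, by a margin smaller than the gap between the 1 h libraries. With libraries rescaled to equal median ratios, the groups of Notch1 overlapped and its log2 fold change was 0.00. Notch2, a receptor with a similar extracellular structure, was at 13.3 and 13.7 TPM at 1 h, and at 21.8, 11.1 and 25.1 TPM at 8 h. The 8 h replicate 14 was the lowest of all 5 libraries and the other 8 h libraries were the highest. Notch3, which is also known from mural cells of vessels, was at 30.2 and 36.8 TPM at 1 h, and at 44.4, 26.1 and 39.9 TPM at 8 h, with the same order of 8 h libraries around the 1 h values. Of the mural markers, Acta2 was highest in 8 h replicate 14, where Notch3 was lowest, whereas Pdgfrb, at most 0.153 TPM, was higher in replicates 13 and 15 than in the other libraries, as Notch3 was. The part of mural cells in the Notch3 values was not tested. Notch1 made up 55.6 to 68.7% of the summed receptor TPM, Notch3 22.0 to 29.2% and Notch2 9.36 to 17.2%. The receptor sum was 117 and 129.9 TPM at 1 h and 152, 119 and 146 TPM at 8 h, so the groups overlapped.

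Among the ligand genes, Dll1 was lower and Jag1 higher in all 8 h libraries by TPM, though neither was called. Dll1, the main Delta ligand of neural progenitors, was at 73.1 and 87.3 TPM in the 1 h libraries and at 51.8, 46.0 and 45.8 TPM in the 8 h replicates 13, 14 and 15. All 8 h libraries lay below both 1 h libraries. Identifier series 1 was represented among them by replicate 14 alone, and within series 1 the times did not overlap for 71.0% of all genes. Jag1, a ligand of the Jagged class, was at 16.6 and 14.4 TPM at 1 h and at 18.4, 23.9 and 20.8 TPM at 8 h, again without overlap but in the other direction. After median-ratio scaling the lowest 8 h library of Jag1 (17.32 scaled TPM, replicate 13) was level with the highest 1 h library (17.32). Dll3, a divergent Delta family member that acts inside the cell rather than as an activating ligand, was at 16.4 and 21.8 TPM at 1 h and at 16.6, 16.9 and 19.04 TPM at 8 h, with overlapping groups. Dll1 made up 68.9 and 70.7% of the ligand sum at 1 h and 59.7, 53.0 and 53.5% at 8 h, and Jag1 15.6 and 11.7% against 21.2, 27.6 and 24.3%. The ligand sum was 106 and 123 TPM at 1 h and 86.8, 86.9 and 85.6 TPM at 8 h. The ratio of Dll1 to Jag1 was 4.40 and 6.07 at 1 h and 2.82, 1.92 and 2.20 at 8 h. For the ligand sum and this ratio, the two-sided exact permutation test over the 5 libraries gave p = 0.1, which is the smallest the design allows, and 0.267 after Benjamini-Hochberg adjustment over 8 sums and ratios.

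**Figure D2:**
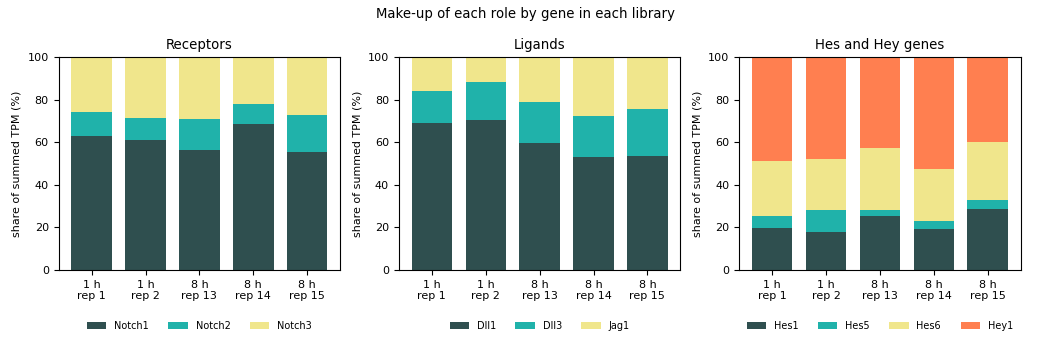
Share of the summed TPM of each role (y axis, percent) taken by each of its genes in each library (bars). The Dll1 share of the ligands was 68.9 and 70.7% in the 1 h libraries and 53.0 to 59.7% in the 8 h libraries, while Notch1 held more than any other receptor and Hey1 more than any other Hes or Hey gene in every library.

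Of the Hes and Hey genes, Hes5 had the largest fold between the times in TPM, though none was called. Hes5 encodes a repressor that is widely used as a readout of Notch activity in neural stem cells. It was at 13.0 and 24.6 TPM in the 1 h libraries and at 6.88, 7.15 and 9.57 TPM in the 8 h replicates 13, 14 and 15. All 8 h libraries lay below both 1 h libraries, which differed from each other by more than the gap between the groups. Hey1, a related repressor, was at 110.8 and 111.1 TPM at 1 h and at 94.6, 97.0 and 89.3 TPM at 8 h, also without overlap, and with 1 h libraries close to each other. Hes1, a repressor known to oscillate in progenitors, was at 44.6 and 41.2 TPM at 1 h and at 55.6, 35.5 and 63.8 TPM at 8 h. Its 8 h replicate 14 was the lowest and the other 8 h libraries the highest of the 5. Hes6, a family member known to counteract Hes1, was at 58.3 and 55.8 TPM at 1 h and at 63.7, 44.2 and 61.4 TPM at 8 h, in the same order. Hey1 held 39.9 to 52.8% of the summed TPM of the 4 genes, and Hes5 5.72 and 10.6% at 1 h against 3.11, 3.89 and 4.27% at 8 h. The ratio of Hes5 to Hes1 was 0.291 and 0.597 at 1 h and 0.124, 0.201 and 0.150 at 8 h. Its two-sided exact permutation p was 0.1, again the smallest the design allows, and 0.267 adjusted over the 8 sums and ratios.

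None of the 10 genes was called between 8 h and 1 h. The test was limma on log2(TPM + 1) across 13870 genes with Benjamini-Hochberg adjustment, and a gene was called where the adjusted p was 0.05 or less and the log2 fold change was above 1 in size, which held for 6 of all genes (0.0433%). The smallest adjusted p among the 10 genes was that of Dll1, 0.24. Its log2 fold change was -0.73 ± 0.12 (SE), with a 95% interval from -1.03 to -0.43, and it was lower in 3 of 3 libraries of 8 h. Hes5 had a log2 fold change of -1.11 ± 0.29 (limma adjusted p = 0.309; interval -1.81 to -0.40), Jag1 of 0.41 ± 0.15 (0.385; 0.04 to 0.79) and Hey1 of -0.24 ± 0.09 (0.385; -0.46 to -0.02). These 4 genes, 1 higher and 3 lower at 8 h, had an unadjusted limma p under 0.05, as did 12.3% of all genes (9.52% higher and 2.82% lower). Without 1 h replicate 2, the higher of the 1 h libraries, the log2 fold change of Hes5 was -0.67. The other 6 genes had log2 fold changes between -0.11 (Dll3) and 0.42 (Notch2) and adjusted p from 0.56 to 0.933. Their intervals were wide for Notch2 (-0.39 to 1.23), Hes1 (-0.38 to 0.83) and Notch3 (-0.48 to 0.69) and narrower for Notch1 (-0.11 to 0.34). Differences within these intervals remain possible, and the smallest difference detectable with these libraries was not computed. Counted by overlap alone, 2 of the 10 genes were higher at 8 h (Notch1 and Jag1), against 23.7% of all genes, and 3 were lower (Dll1, Hes5 and Hey1), against 9.43%. The median log2 fold change was 0.04 over the 10 genes and 0.10 over all genes tested, and median-ratio scaling moved the latter by -0.11. After that scaling 3 genes did not overlap, namely Dll1, Hes5 and Hey1, all lower at 8 h, against 31.8% of all genes in either direction.

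**Figure D3:**
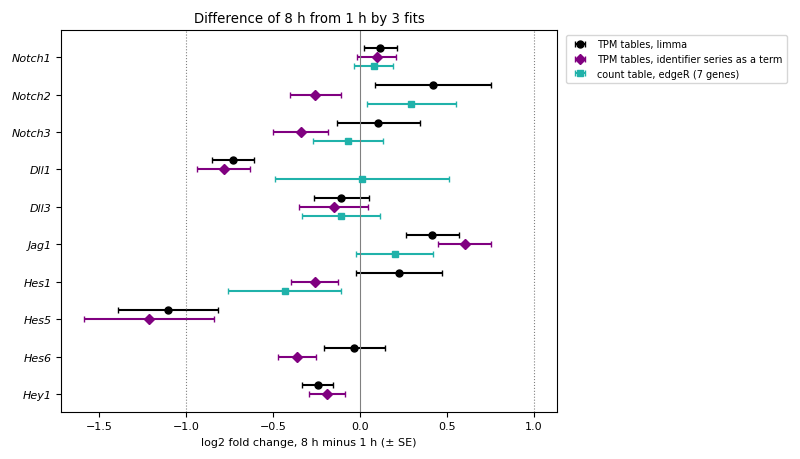
Log2 fold change of 8 h minus 1 h (x axis, bars ± SE) for each gene from 3 fits: the TPM tables, the TPM tables with the identifier series as a term, and the count table (7 genes), with dotted lines at the size that a call required. In TPM, Dll1 and Hes5 were at -0.78 and -1.21 with the series term, whereas Notch2, Notch3 and Hes1 moved to the other side of 0. In the count table, Dll1 was at 0.01 (0.87 with the series term, not drawn). Without the column named 8 h replicate 14, which matched no TPM table, its count value was -0.72 (not drawn).

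The libraries were split by identifier series for 5 of the 10 genes. Notch2, Notch3, Hes1 and Hes6 were higher in both libraries of series 2 than in all 3 of series 1, and Hey1 was lower. Of all genes, 39.8% were higher and 13.5% lower in series 2 without overlap, so 5 of 10 lies near the 53.3% of all genes. Notch2 was 1.85 times, Hes1 1.48 times, Notch3 1.36 times and Hes6 1.19 times as high in series 2 as in series 1 by mean TPM. Within 8 h, replicates 13 and 15 together exceeded replicate 14 by 2.11 times for Notch2, 1.68 times for Hes1, 1.62 times for Notch3 and 1.42 times for Hes6. The same ratio was 1.06 for Dll1, 1.02 for Notch1, 1.05 for Dll3, 0.948 for Hey1, 1.15 for Hes5 and 0.818 for Jag1. With the series as a term, which leaves the difference of 8 h replicate 14 from the 1 h libraries, the log2 fold change was -0.26 for Notch2, -0.34 for Notch3 and -0.26 for Hes1, all opposite in sign to the values above, and -0.36 for Hes6. It was -0.78 ± 0.15 for Dll1 (limma adjusted p = 0.308), -1.21 ± 0.37 for Hes5 (0.438), 0.60 ± 0.15 for Jag1 (0.376) and -0.19 ± 0.10 for Hey1 (0.653). None of the 10 genes was called with the series term, against 0.137% of all genes. Dll1, Hes5, Jag1 and Hey1 kept their direction within series 1, where 8 h is a single library, as did Notch1, Dll3 and Hes6. For Dll1, Hes5, Jag1, Hey1 and Notch1 this was fixed in advance, since 8 h replicate 14 lay beyond both 1 h libraries. Of all genes, 71.0% did not overlap between the times within series 1. Without 8 h replicate 14, all remaining 8 h libraries were of series 2, and the limma p after adjustment was 0.0127 for Notch2 (log2 fold change 0.76), 0.0175 for Dll1 (-0.70) and 0.0362 for Hes1 (0.47). None of these passed the size a call required, and an adjusted p of at most 0.05 was then reached by 19.9% of all genes.

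The count table, which lists 7599 genes, held 7 of the 10 genes and not Hes5, Hes6 or Hey1. None of the 7 was called by edgeR's quasi-likelihood test, which called 0 of 7590 genes (0%). At an unadjusted p under 0.05 the edgeR test had 199 genes (2.62%) and DESeq2 had 227 of 7599 (2.99%), none of them one of the 7. DESeq2 also called 0 genes. The columns of the table did not all match the TPM tables of the same label. Relative to 1 h replicate 1 and within 0.1 on the log2 scale, 77.2% of 7340 genes in the column named 1 h replicate 2 matched their own TPM table. The column named 8 h replicate 13 matched the TPM table of replicate 14 for 77.3% of genes (its own for 25.0%), and the column named replicate 15 matched the table of replicate 13 for 76.0% (its own for 39.8%). No TPM table was matched by the column named 8 h replicate 14 for more than 36.4% of genes, a share reached with the table of 1 h replicate 2. All 3 columns carry an 8 h label and were used as such, but the group of the unmatched column could not be checked against a TPM table. The identifier series of the columns, taken from their names, is also in doubt, since the column named replicate 13 (series 2) matched a table of series 1.

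This bears most on Dll1. Its normalised read count was 138 and 147 CPM (counts scaled to the column total) in the 1 h columns, and 85.3, 267 and 88.7 CPM in the columns named 8 h replicates 13, 14 and 15. The unmatched column was the highest of the 5, and the other 8 h columns were the lowest. The log2 fold change of Dll1 was 0.01 ± 0.50 with all columns and -0.72 without the column named replicate 14 (edgeR adjusted p = 0.997 and 0.688). With the series as a term, and so resting on these doubtful column labels, it was 0.87 ± 0.12 (edgeR adjusted p = 0.42), opposite in sign to the value from TPM, and that of Hes1 was -1.17 ± 0.26 (0.624). Hes1 was at 46.0 and 52.3 CPM at 1 h and at 36.5, 22.5 and 52.1 CPM at 8 h, with the lowest value in the same column (log2 fold change -0.43 ± 0.33, edgeR adjusted p = 0.966). Notch1 was at 453 and 493 CPM at 1 h and at 491, 559 and 476 CPM at 8 h, with overlapping groups (0.08 ± 0.11). Jag1 was at 67.1 and 56.9 CPM at 1 h and at 92.9, 58.3 and 65.7 CPM at 8 h (0.20 ± 0.22), also with overlap. Notch2 ranged from 78.7 to 142 CPM, Notch3 from 149 to 232 CPM and Dll3 from 25.3 to 36.6 CPM, each with overlapping groups. None of the 7 genes was without overlap in CPM, against 18.7% of the genes of the table. Each value rests on 325 to 8853 reads.

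**Figure D4:**
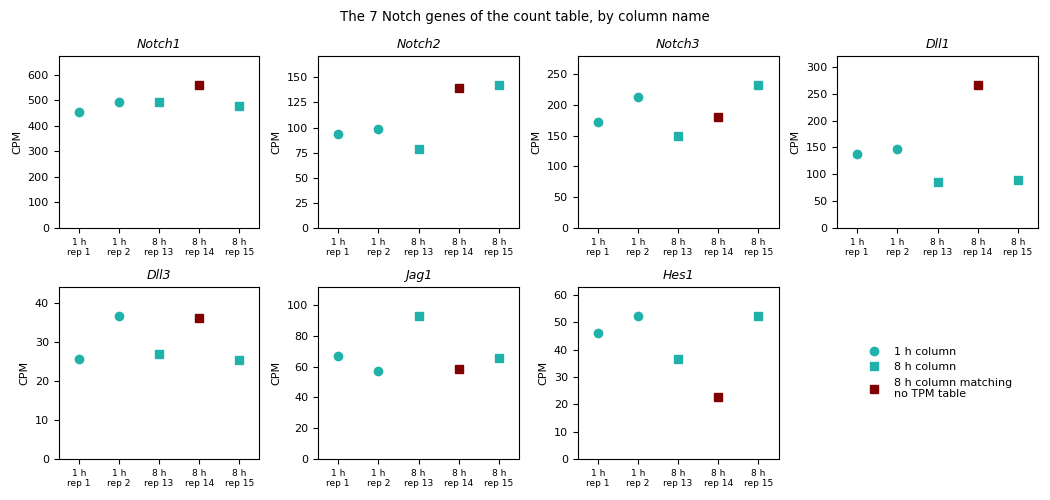
CPM (y axis, from 0) of the 7 genes of the count table in each column, by column name, with circles for 1 h and squares for 8 h and the column that matched no TPM table in dark red. That column was the highest for Dll1 (267 CPM, with 85.3 and 88.7 CPM in columns 13 and 15) and for Notch1, and the lowest for Hes1.

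Of 65 other genes of the pathway, 51 passed the filter of a mean of 1 TPM and none was called. In all, 1 was higher and 2 were lower at 8 h with an unadjusted limma p under 0.05. This is 5.88%, against 12.3% of all genes (9.52% higher and 2.82% lower). Without overlap, 9 were higher and 3 lower (23.5%, against 33.1% of all genes). Their median log2 fold change was 0.08. The 3 genes with an unadjusted p under 0.05, named after their values were seen where the fixed rule did not name them, were Itch, Maml2 and Crebbp. Itch encodes a ubiquitin ligase that acts on Notch, and was at 65.3 and 60.6 TPM at 1 h and 85.0, 81.7 and 88.8 TPM at 8 h. Maml2, a Mastermind co-activator, was at 50.1 and 48.3 TPM at 1 h and 37.2, 43.4 and 40.3 TPM at 8 h. Crebbp, an acetyltransferase recruited by the nuclear complex, was at 23.6 and 22.7 TPM at 1 h and 13.6, 19.8 and 15.6 TPM at 8 h (log2 fold change -0.49 ± 0.17, limma adjusted p = 0.38). Of the 7 tested genes of the nuclear complex 5 did not overlap between the times, 3 higher and 2 lower at 8 h, against 33.1% of all genes. Snw1, its most abundant gene, was at 88.4 and 87.2 TPM at 1 h and 101.1, 93.8 and 103 TPM at 8 h. Kat2b, another acetyltransferase of the complex, was at 16.8 and 14.6 TPM at 1 h and 20.5, 16.7 and 21.2 TPM at 8 h, with overlapping groups.

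The list of other receptors and ligands held 6 genes, of which 3 were tested. Dner, which encodes a Delta-like transmembrane protein of neurons, was the most abundant at 150.0 and 133 TPM at 1 h and 63.9, 137 and 64.1 TPM at 8 h. It was thus split by series and not by time, with 8 h replicate 14 between the 1 h libraries. Dlk2, a Delta-like protein, stayed between 0.640 and 1.64 TPM. Of 6 other Hes and Hey family genes and targets, only Nrarp had a mean of at least 1 TPM, and Hes2 and Hes7 were listed at 0 in every library. Nrarp, a target that feeds back on the Notch intracellular domain, was at 4.52 and 6.46 TPM at 1 h and 14.6, 6.05 and 15.6 TPM at 8 h. It was 2.66 times as high in series 2 as in series 1. In the series 1 libraries its ratio of 8 h replicate 14 to the 1 h mean was 1.10, against 0.381 for Hes5 and 0.829 for Hes1.

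Among the cleavage enzymes, Psenen, a subunit of gamma-secretase, was at 160.0 and 168 TPM at 1 h and 166, 162 and 149.6 TPM at 8 h, with overlapping groups. Of the 9 tested genes of this list 1 did not overlap between the times, against 33.1% of all genes. Among 12 co-repressor genes, Hdac2 was the most abundant, at 222 and 177 TPM at 1 h and 223, 219 and 198 TPM at 8 h. Hdac1, a histone deacetylase as well, was at 147 and 142 TPM at 1 h and 178, 155 and 179.6 TPM at 8 h, and Tle1, a Groucho co-repressor that Hes proteins recruit, was at 27.8 and 24.7 TPM at 1 h and 17.5, 25.0 and 20.5 TPM at 8 h. Of 17 tested genes of glycosylation and trafficking, 9 were higher and 2 lower in series 2 without overlap, against 39.8% and 13.5% of all genes. Lfng, a Fringe glycosyltransferase that tunes the receptor's response to Delta and Jagged ligands, was at 177 and 211 TPM at 1 h and 281, 160.4 and 253 TPM at 8 h, the highest mean of the 65 genes. Neurl1b, a ubiquitin ligase of ligand endocytosis, was at 1.88 and 1.00 TPM at 1 h and 4.97, 1.49 and 8.79 TPM at 8 h, and Dtx3, a Deltex family gene, was at 58.0 and 65.0 TPM at 1 h and 54.9, 56.3 and 46.5 TPM at 8 h.

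Of 5 proneural genes, 2 were tested and Neurog1 was listed at 0 in every library. Neurod1, a factor of neuronal differentiation, was at 1.87 to 1.94 TPM at 1 h and 1.44 to 2.03 TPM at 8 h. Without 8 h replicate 14, where only series 2 remains at 8 h, 4 of the 51 genes were called, namely Dner and Dlk1 lower, and Nrarp and Neurl1b higher, beside 4.1% of all genes. Dlk1 was named after its values were seen.

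**Figure D5:**
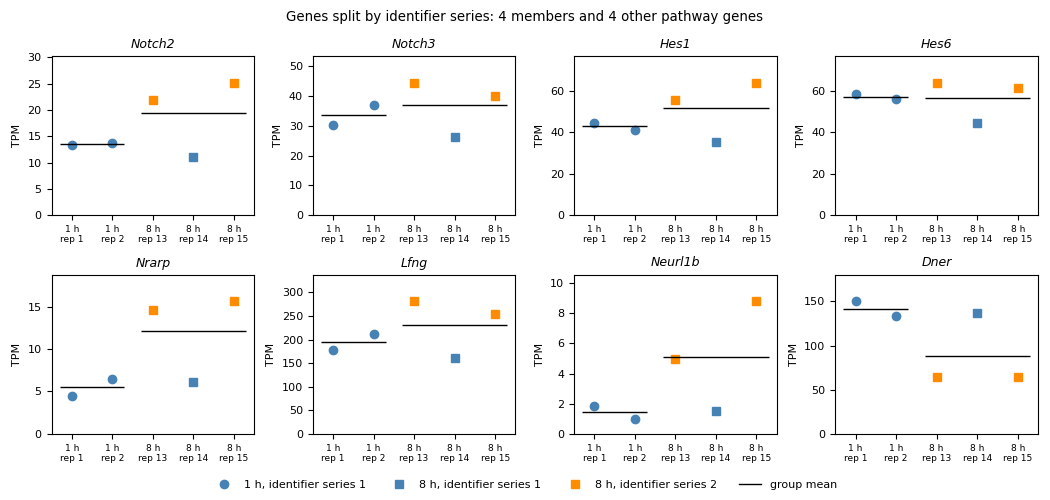
TPM (y axis, from 0) of 4 of the 10 genes and of 4 other pathway genes, chosen after their values were seen, in each library, coloured by identifier series as in the plot of all 10 genes. In every panel the 8 h replicate 14 lies with or beyond the 1 h libraries of its own series, and the 8 h replicates 13 and 15 lie apart, higher for 7 genes and lower for Dner.

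The genes whose profile over the 5 libraries was most like that of Hes5, Hes1 and Notch1 were searched among 3419 genes with a mean of at least 10 TPM and a range of at least 0.5 on the log2 scale. Likeness was the root mean square difference of centred log2(TPM + 1) values, a description over 5 libraries with no test. For Hes5 these were Pttg1ip (0.150), Amotl2 (0.283) and Pantr1 (0.289). Pttg1ip was at 51.1 and 88.1 TPM at 1 h and 31.2, 28.3 and 30.5 TPM at 8 h, with a difference between the 1 h libraries as for Hes5. For Hes1 they were Plekhb1 (0.030), Gjc1 (0.037) and Brca1 (0.043), all with 8 h replicate 14 lowest and replicates 13 and 15 highest. Such shared features are what the genes were picked for and are no separate result. For Notch1 they included Tbkbp1 (0.098) and Hsf1 (0.102), although the range of Notch1 itself, 0.22, was below that asked of the genes searched.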

How the data were processed

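RNA-seq libraries were stranded and poly-A selected, 2 from 1 h and 3 from 8 h after PBS. According to the study's methods, reads were mapped to GRCm38 within nf-core/rnaseq and summed over genes with STAR and featureCounts, and a biological replicate was 1 animal. The authors deposited raw counts per gene in 1 table (13988166 to 18572154 counts per column, over 7599 genes, a part of all genes) and, per library, tables of TPM, made with a tool that the sources used here do not name. The deposited FPKM values were not used. The deposited per-base coverage was read only as a signal of depth (18.5 to 232 for the 10 genes). Columns were matched to libraries by name, and 0 value columns were left over. TPM was summed per gene ID.

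Groups came from the labels. TPM was tested with limma 3.58.1 (intensity trend, log2(TPM + 1), mean TPM of at least 1; such fold changes understate the change of low genes), and counts with edgeR 4.0.16 (TMM, filterByExpr) or DESeq2 1.42.0, in R 4.3.3. The scripts were checked on simulated data. Alternatives were the pseudocount, filters, scaling, the series as a term, series 1 alone and leaving out each library. The 10 genes and the lists were chosen with earlier results of these data known. Named were all 10 genes, per list the most abundant gene and those with the largest rise and fall, genes called or listed at 0, and the 3 genes most like Hes5, Hes1 and Notch1. Some genes that this rule names are not reported here.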

Additional observations from a re-analysis of the deposited data

How the results depend on the processing

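No paired analysis was possible because the groups share no replicate number. With TPM, 6 of all genes were called, against 19 with the series as a term, 1 at a mean TPM of at least 5, 0 without a filter (2371 genes with an unadjusted p under 0.05 by limma), and 0 to 568 when each library was left out. The count of 568 came without 8 h replicate 14, which also gave 4 calls among the other pathway genes (0 otherwise, range 0 to 4). None of the 10 genes was called under any of the alternatives run, by limma, edgeR or DESeq2. In the main TPM comparison 5 of them did not overlap. The count was 3 after median-ratio scaling, 9 within series 1 alone (71.0% of all genes), and 5 to 9 when a library was left out (9 without 8 h replicate 14, 65.3% of all genes). In fits with 1 library in a group, that library is assumed to vary like the other group. The log2 fold change changed sign for Notch2 (-0.26) and Hes1 (-0.26) with the series as a term or series 1 alone, and for Notch3 (-0.34) with both, after median-ratio scaling (-0.00768) and without 1 h replicate 1 (-0.0354) or 8 h replicate 13 (-0.0444). It did so for Dll3 without 1 h replicate 2 (0.0853) and for Hes6 without 8 h replicate 14 (0.13). The ranges when a library was left out were 0.20 to 0.76 for Notch2, -0.0444 to 0.33 for Notch3, -0.30 to 0.0853 for Dll3, 0.05 to 0.47 for Hes1 and -0.13 to 0.13 for Hes6. For Hes5 the range was -1.54 to -0.67, with -0.67 without 1 h replicate 2. In counts, the series as a term gave 0.87 for Dll1 (0.01 without the term) and -1.17 for Hes1 (-0.43). An unadjusted p under 0.05 by edgeR was then reached by 2 of the 7 genes (0 without the term). Of all 7590 genes, 444 then reached it (199 without the term). The sign changed for Dll3 (0.18) and Jag1 (-0.12). These values rest on column labels that the TPM tables did not bear out. In the count fits that left out a library it changed for Notch3 (-0.25 to 0.10), Dll1 (-0.72 to 0.28), Dll3 (-0.34 to 0.18) and Jag1 (-0.0285 to 0.35). Of these, the Dll1 value of -0.72 came without the column named 8 h replicate 14 and -0.0349 without 1 h replicate 1, and the Notch3 values of 0.10 and 0.07 without 1 h replicate 2 and 8 h replicate 13. The cause of these changes was not tested. Dll1, Jag1, Hes5, Hey1 and Notch1 kept their direction in TPM under all alternatives run. These are the 5 genes whose 8 h libraries all lay beyond both 1 h libraries. Their sign was therefore fixed in advance in fits that left out a library, used series 1 alone or had the series as a term. Those fits are no separate support for the direction. Each count of the 7 genes rests on 325 reads or more, and read counts of Hes5, Hes6 and Hey1 were not analysed here.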
